A study of Zea mays with 9 samples.

Results

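The comparison is between the tassels of ndl1 (needle1) and of Bif1;Bif4 maize, set directly against each other over all genes and without the wildtype as reference. It uses 6 of the 9 libraries of the study, 4 of ndl1 and 2 of Bif1;Bif4, chosen by the genotype in the labels, and the 3 wildtype libraries enter through the scaling and the shared estimate of spread. The tassel is the male inflorescence, and tassels of 2 to 4 mm from field-grown plants in the B73 inbred background were taken for all groups. The ndl1 plants carried a mutation in a gene labelled zmftsh10. The Bif1;Bif4 plants, also called the double heterozygotes below, were heterozygous for mutations at both Bif1 and Bif4, and the wildtype was B73 with neither. Per the labels, the ndl1 tassels included severely affected ones that had still formed some axillary meristems. The labels do not give the nature of the mutations, the number of plants per library or whether libraries came from separate plants. The p-values therefore measure no more than how these libraries vary, and that variation may be technical.

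FtsH proteins are ATP-dependent proteases of membranes, and the title of the study places the product of NDL1 in mitochondria. In yeast and Arabidopsis such proteases degrade damaged membrane proteins and help assemble the respiratory complexes. BIF1 and BIF4 are Aux/IAA proteins, repressors that bind auxin response factors and are degraded when auxin is perceived. A maize tassel makes its branches and spikelets from axillary meristems, whose initiation needs auxin, and mutants that fail in this step form barren inflorescences. Both genotypes thus share a tissue and a stage, while the mutated proteins work in different compartments.

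The libraries held 16863087 to 22533736 reads counted to genes. On the first 2 principal components of the log2 values, which took 42.2% and 19.7% of the variance, the Bif1;Bif4 libraries stood apart on the second, at -55.4 and -67.7 against 2.30 to 28.4 in ndl1. The ndl1 libraries were themselves spread along the first, from -2.46 in replicate 2 to 93.9 in replicate 4. The root mean square difference per gene between an ndl1 and a Bif1;Bif4 library was 0.698 to 0.970 log2 units, that between ndl1 libraries 0.517 to 0.886 and that between the Bif1;Bif4 libraries 0.548. Levels below are normalized counts, which are reads divided by a size factor of the library. Differences are those of mean log2(normalized count + 1), ndl1 minus Bif1;Bif4, so that a positive value is higher in ndl1. A gene was called when its Benjamini-Hochberg adjusted p in limma was under 0.05. Whether a tassel had fewer cells of a type or less RNA per cell cannot be told apart in such bulk samples.

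The mutated genes themselves were not called. NDL1 (GRMZM2G038401) had 2961, 3410, 3495 and 3064 normalized counts in ndl1 and 3005 and 3260 in Bif1;Bif4, with 3201 to 3548 in wildtype. The groups overlapped and the log2 difference was 0.04, with a 95% interval of -0.16 to 0.24. BIF1 (GRMZM2G130953) had 284.4 to 450.6 in ndl1 and 141.1 and 460.1 in Bif1;Bif4, a log2 difference of 0.35 (interval -0.63 to 1.32). For BIF4 (GRMZM5G864847) the levels were 76.7 to 178.3 against 107.4 and 210.9, a log2 difference of -0.33 (interval -1.15 to 0.50). These transcripts are no check of the genotype labels, which do not say that the mutations change RNA levels.

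Of 23203 genes tested, 806 were called, which is 3.47%. Of these, 416 (1.79% of the genes tested) were higher in ndl1 and 390 (1.68%) were lower. In all 806 the ndl1 and Bif1;Bif4 libraries did not overlap, as was the case in 27.8% of all genes tested. The median log2 difference was 1.45 among the genes called higher and -1.03 among those called lower, and 0.00 over all genes tested. In edgeR's quasi-likelihood test 769 genes were called, 736 of them shared with limma in the same direction. DESeq2 called 1628, 785 of them shared. An unadjusted limma p was under 0.05 in 4204 of the 23203 genes tested. The number called rests on the Bif1;Bif4 libraries: it was 233 without replicate 1 and 152 without replicate 2 of that group, and it was 482 without ndl1 replicate 1.

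**Figure D1:**
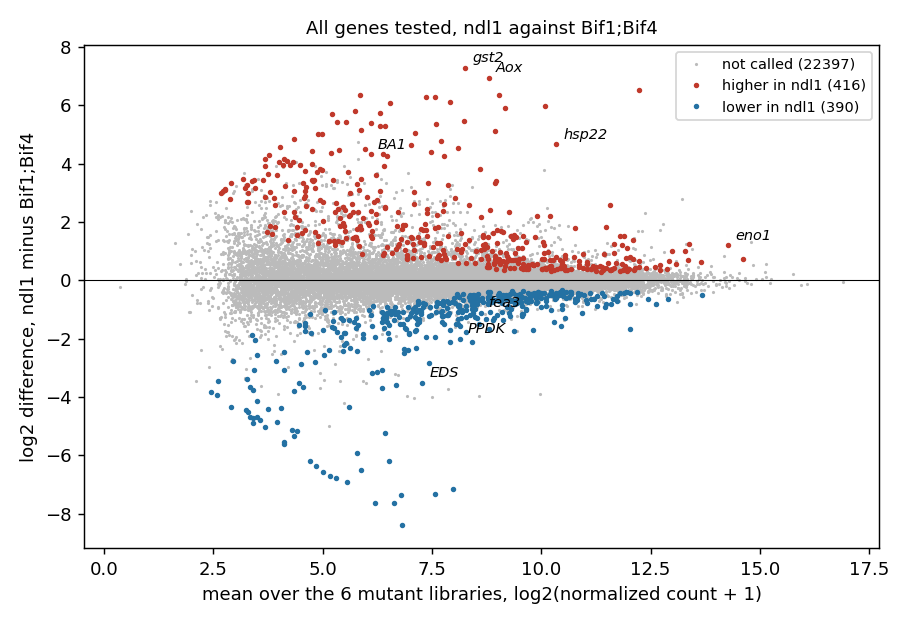
Log2 difference of each gene tested (vertical axis, ndl1 minus Bif1;Bif4) against its mean level over the 6 mutant libraries (horizontal axis, log2 of the normalized count + 1). Red points are the 416 genes called higher in ndl1, blue points the 390 called lower and grey points the 22397 not called, and the red points reach 7.30 at gst2.

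The wildtype level, given as a description with no test, lay between the mutants for most of the called genes. This was so for 268 of the 416 genes higher in ndl1 and for 298 of the 390 lower in ndl1. Calling genes by the difference between the mutants itself favours a wildtype level between them. Positions beside the wildtype were not counted over all genes tested, so these numbers describe the called genes only. Both mutant means were below the wildtype mean in 72 of the genes higher in ndl1 and in 12 of those lower in ndl1. Among the genes lower in ndl1, the mean of Bif1;Bif4 was the farther from wildtype in 254 and that of ndl1 in 136. Among the genes higher in ndl1 these numbers were 201 and 215.

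Some genes of mitochondrial stress were higher in ndl1, most of all an alternative oxidase. The list of mitochondrial stress genes and proteases had 12 tested members, NDL1 among them. Of these, 4 (33.3%, against 3.47% of all genes tested) were called higher in ndl1 and 0 lower. The median log2 difference was 0.74. Beside wildtype the list's median was 0.19 in ndl1 and -0.21 in Bif1;Bif4, so the mutants lay on either side. The summed level of the list was 28612 to 33129 in ndl1, 19120 and 19181 in Bif1;Bif4 and 23737 to 28601 in wildtype. Aox (GRMZM2G125669), an alternative oxidase that passes electrons from ubiquinol to oxygen past the cytochrome chain, had 981.5, 680.5, 557.9 and 440.2 normalized counts in ndl1. In the double heterozygotes it had 11.8 and 1.07, and in wildtype 0.972 to 2.92. Every ndl1 library was thus far above all other libraries, and the log2 difference was 6.95 ± 0.65 (SE, limma adjusted p = 0.000705).

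Prohibitin phb2 (GRMZM2G107114), of the inner mitochondrial membrane complex that surrounds FtsH proteases in yeast and Arabidopsis, had 3795, 4579, 3703 and 3445 normalized counts in ndl1. Its 2 double heterozygote libraries had 2012 and 2029, and wildtype had 2256 to 2461. The difference was 0.93 ± 0.11 on the log2 scale (SE, limma adjusted p = 0.00203), with ndl1 above both other groups. CPN60II (GRMZM2G416120), a mitochondrial chaperonin, had 9446, 11155, 9997 and 8626 in ndl1, 4849 and 4745 in Bif1;Bif4 and 7370 to 9677 in wildtype. Here ndl1 overlapped wildtype and the double heterozygotes lay below both, and the log2 difference was 1.03 ± 0.13 (SE, limma adjusted p = 0.00308). CPN60I (GRMZM2G458208) was likewise lowest in Bif1;Bif4, with means of 3261 ± 591 (SD, n = 4) and 1736 ± 60.1 (SD, n = 2) against 3475 ± 881 in wildtype (SD, n = 3). It was called at a limma adjusted p of 0.0475 and under 7 of 18 alternatives, and a second CPN60I identifier was not called, at 0.0754. Total-read scaling and edgeR were among the settings that lost it. Reads of these near-identical copies may be split between them. The other prohibitins phb1 and phb3, the proteases lon1 and LON2 and the uncoupling protein PUMP were not called, with log2 differences of 0.03 to 0.64. A second alternative oxidase gene of the list, aox3 (GRMZM2G074743), was not called either. The differences of all 12 members were positive.

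A pair of glutathione transferase genes, enzymes of detoxification, were far higher in ndl1, while most of their list was not called. Of 37 tested members of the list of glutathione transferases and redox genes, 2 were called higher and 0 lower, with a median of 0.01. That is 5.4% of the list, not far from the 3.47% of all genes tested. The glutathione transferase gst2 (GRMZM2G132093) had 477.2, 458.2, 369.0 and 521.9 normalized counts in ndl1. In the double heterozygotes it had 7.28 and 0, and in wildtype 1.94 to 4.87. Its log2 difference of 7.30 ± 0.69 (SE, limma adjusted p = 0.000705) was the highest of all genes tested. For gst42 (GRMZM2G025190) the ndl1 libraries had 1195, 824.9, 519.8 and 584.6, against 11.8 and 5.33 in Bif1;Bif4 and 4.67 to 12.7 in wildtype. The ndl1 mean was 91.0 times that of the double heterozygotes, whose values lay within the wildtype range. Nucleoredoxin nrx1 (GRMZM2G048324), a thioredoxin-like protein outside that list, had 354.8 to 838.3 in ndl1, 145.7 and 82.0 in Bif1;Bif4 and 103.0 to 154.0 in wildtype. Glutathione transferases form a large family, and the strand setting and handling of shared reads were not given in the sources used here, so reads may be split among copies.

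Some transcription factor genes of stress families were higher in ndl1, and for NAC12, EREB94 and WRKY30 Bif1;Bif4 was near the wildtype level. NAC12 (GRMZM2G018436), of a family of plant-specific transcription factors, had 117.0, 76.7, 70.1 and 253.0 normalized counts in ndl1, 5.46 and 4.26 in Bif1;Bif4 and 7.002 to 7.798 in wildtype. Its log2 difference was 4.28 ± 0.47 (SE, limma adjusted p = 0.00173). A second gene of the same name, GRMZM2G125777, differed by 0.51 and was also called. These were the 2 of 17 tested NAC genes called higher, and 0 were called lower, with a median of 0.84. EREB94 (GRMZM2G363052), an ethylene-response-factor type protein, had 890.7, 1132, 801.8 and 692.2 in ndl1, 300.5 and 307.8 in Bif1;Bif4 and 352.4 to 398.7 in wildtype. WRKY30 (GRMZM2G143204) had 45.1 to 162.3 in ndl1, 10.02 and 17.04 in Bif1;Bif4 and 6.80 to 21.4 in wildtype, and was called under 10 of 18 alternatives. WRKY29 (GRMZM2G040298) had another order, with 6.97 to 19.6 in ndl1 beside 7.002 to 13.6 in wildtype and 0.911 and 1.07 in Bif1;Bif4. It rested on 2 reads there, with a ratio of ndl1 over Bif1;Bif4 of 13.0 (95% counting interval 3.41 to 110). In all, 2 of 17 WRKY genes were called higher and 0 lower, while the AP2/EREB list of 28 had 2 higher (EREB94 and DREB2) and 1 lower (EREB161). EREB161 was called under 8 of 18 alternatives. The shares called were 11.8% for NAC, 11.8% for WRKY and 10.7% for AP2/EREB genes, against 3.47% of all genes tested. In the list of jasmonate, abscisic acid and defence genes 45 of 59 tested members had a positive difference, with a median of 0.57, but 2 were called, the lipoxygenase lox4 and TIFY4, of the JAZ repressor family. These 2 make up 3.39% of that list, close to the share of all genes. TIFY4 was called under 10 and lox4 under 11 of 18 alternatives. The ndl1 libraries varied widely in the summed level of that list, from 70988 in replicate 2, below the 99391 and 77036 of Bif1;Bif4, to 237440 in replicate 4.

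A few enzyme genes of the lower part of glycolysis were higher in ndl1. The enolase eno1 (GRMZM2G064302) had 25083, 26541, 21994 and 23691 normalized counts in ndl1, 10241 and 10802 in Bif1;Bif4 and 10948 to 11662 in wildtype. The ndl1 mean was 2.31 times that of the double heterozygotes, and the log2 difference of 1.21 ± 0.10 had a limma adjusted p of 0.000404. The cytosolic glyceraldehyde-3-phosphate dehydrogenase gpc4 (GRMZM2G176307) had 10926 to 16405 in ndl1, 4851 and 6092 in Bif1;Bif4 and 5112 to 6298 in wildtype. Its relative gpc3 (GRMZM2G071630) had 8937 to 13873, 6541 and 5373, and 7444 to 9466 in the same groups. The double heterozygotes were thus below both other groups for gpc3 and close to wildtype for eno1 and gpc4. These 3 were called higher among 24 tested members of the list of glycolysis and carbon genes, PPDK was called lower, and the list's median was 0.03. The share called was 16.7%, against 3.47% of all genes tested. The second enolase, eno2, was not called, with a log2 difference of -0.02. Of 12 low-oxygen and fermentation genes 1 (8.33%) was called, the aldolase ald1 (GRMZM2G057823), with 12260 to 15808 in ndl1, 9108 and 9649 in Bif1;Bif4 and 5950 to 7746 in wildtype. Every library of both mutants was thus above wildtype, and ndl1 was the highest. It was called under 9 of 18 alternatives.

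**Figure D2:**
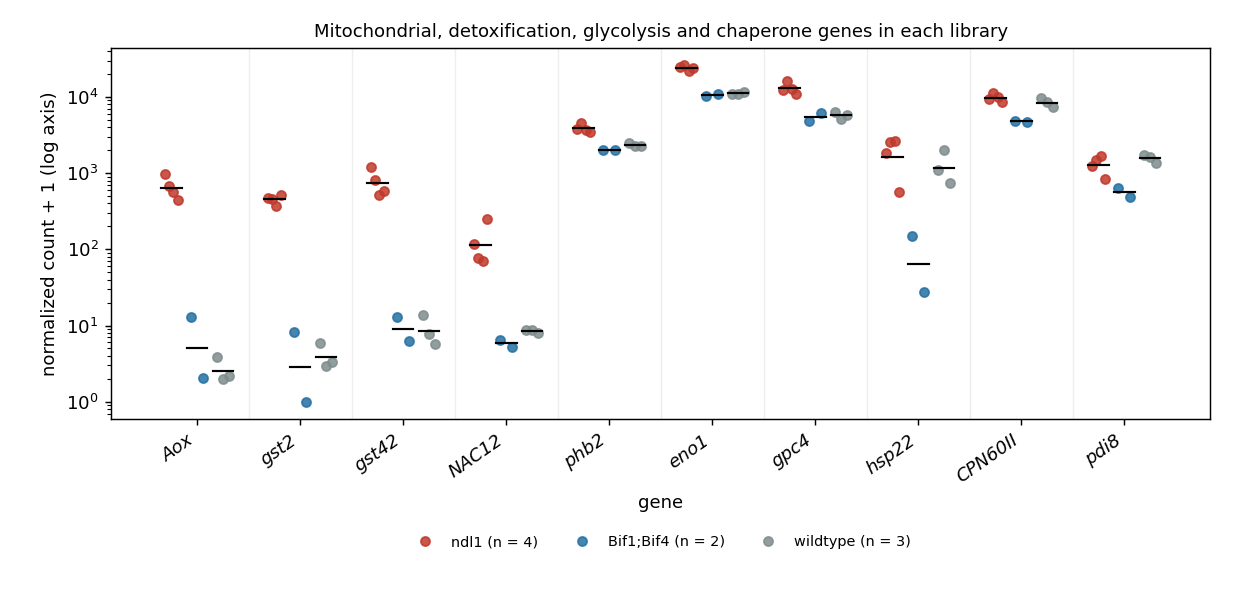
Normalized counts + 1 per library (vertical log axis) for 10 genes called higher in ndl1, with ndl1 in red, Bif1;Bif4 in blue and wildtype in grey, and black bars at the mean of the log values. For Aox, gst2, gst42 and NAC12 the blue points lie near the grey ones and the red points far above both, while for hsp22, CPN60II and pdi8 the blue points lie below both other groups.

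The called chaperone genes were lowest in Bif1;Bif4. Of 41 tested heat shock and chaperone genes, 5 were called higher in ndl1 and 0 lower, and the median log2 difference was 0.31. The share called was 12.2%, against 3.47% of all genes tested. Beside wildtype the list's median was -0.03 in ndl1 and -0.70 in Bif1;Bif4. The small heat shock protein hsp22 (GRMZM2G007729) had 1830, 2588, 2610 and 573.6 normalized counts in ndl1, 146.6 and 26.6 in Bif1;Bif4 and 731.7 to 2024 in wildtype. The ndl1 and wildtype libraries overlapped, and both lay above Bif1;Bif4, with a log2 difference from ndl1 of 4.68 ± 0.76 (SE, limma adjusted p = 0.0115). That call was lost without Bif1;Bif4 replicate 2. The protein disulfide isomerase pdi8 (GRMZM2G389173), which forms disulfide bonds in the endoplasmic reticulum, had 848.5 to 1699 in ndl1, 644.7 and 482.5 in Bif1;Bif4 and 1372 to 1724 in wildtype. Its call held under 12 of 18 alternatives. The heat stress factor Hsf03 (GRMZM2G164909) had no read in either double heterozygote library and was at least 6.15-fold higher in ndl1, counted against a floor of 3 reads over the group. It was called under 7 of 16 alternatives, and neither in edgeR (adjusted p = 0.0661) nor without either double heterozygote library. CPN60II and CPN60I, given above, were the other called members. Several members with large differences varied too much to be called, among them HSP90-1 at 1.89 (adjusted p = 0.194) and hsp101 at 1.70 (adjusted p = 0.183). The summed level of the list was 128590 to 180160 in ndl1, 111310 and 127670 in Bif1;Bif4 and 167500 to 199460 in wildtype.

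Both called genes of axillary meristem initiation were below wildtype in every mutant library and lowest in Bif1;Bif4. BA1 (barren stalk1, GRMZM2G397518), a bHLH factor needed to form axillary meristems, had 62.7, 85.8, 187.2 and 62.7 normalized counts in ndl1. The double heterozygote libraries had 5.46 and 2.13, and the wildtype libraries 248.6 to 392.8. None of the 3 groups overlapped, with ndl1 in the middle, and the log2 difference between the mutants was 4.33 ± 0.46 (SE, limma adjusted p = 0.00144). The AT-hook gene baf1 (barren stalk fastigiate1, GRMZM2G072274) had the same order, with 63.6, 147.8, 98.5 and 66.7 in ndl1, 12.8 and 20.2 in Bif1;Bif4 and 248.6 to 331.4 in wildtype. Its log2 difference of 2.39 ± 0.34 (SE, limma adjusted p = 0.00638) was no longer called without Bif1;Bif4 replicate 1. These were the 2 called of 7 tested members of the list (28.6%, against 3.47% of all genes tested), with 0 called lower and a median of 0.56. Not called were nam1 at 0.67 ± 0.25, the kinase gene bif2 at 0.56 and the auxin synthesis gene spi1 at -0.56 ± 0.24.

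The called branching genes followed the same order. The phosphatase gene ra3 (ramosa3, GRMZM2G014729), which limits the branching of spikelet pair meristems, had 130.05, 462.7, 424.9 and 253.0 normalized counts in ndl1. It had 40.1 and 4.26 in Bif1;Bif4 and 606.3 to 1445 in wildtype, so that the groups did not overlap. The log2 difference of 4.28 ± 0.77 had a limma adjusted p of 0.0179, and ra3 was called under 15 of 18 alternatives. The call was lost without Bif1;Bif4 replicate 2, in the 6 mutant libraries alone and with the replicate number as a block. For the zinc finger gene ra1 (ramosa1, GRMZM2G003927) the levels were 4.68, 36.1, 47.0 and 20.9 in ndl1 and 48.7 to 164.6 in wildtype. The double heterozygotes held 1 read of it in its 2 libraries, which gives a ratio of 55.3 with a 95% counting interval of 9.73 to 2205. Its limma adjusted p was 0.0316, that of edgeR was 0.0712, and it was called under 8 of 18 alternatives. BAD1 (branch angle defective1, GRMZM2G110242), a TCP factor of the pulvinus at the branch base, had 74.8 to 160.2 in ndl1, 27.3 and 12.8 in Bif1;Bif4 and 236.2 to 269.6 in wildtype. Its log2 difference was 2.53 ± 0.35 (SE, limma adjusted p = 0.00580), a call also lost without Bif1;Bif4 replicate 2 and with the replicate number as a block. OFP28 (GRMZM2G122709), of the ovate family and in none of the lists, had 56.1 to 83.5, 9.11 and 17.0, and 172.7 to 227.4 in the same groups.

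Of the 16 tested branching and determinacy genes, 3 were called higher in ndl1 and 0 lower, with a median of 0.17. The share called was 18.75%, against 3.47% of all genes tested. Members outside the calls included the SBP-box genes ub3 at -0.83 ± 0.34 and ub2 at -0.61, and lg2 at 0.95 ± 0.24 (limma adjusted p = 0.0722). The spikelet meristem gene bd1 had no read in Bif1;Bif4 and 0 to 24.8 normalized counts in ndl1, so that the groups overlapped. Other regulators had narrow intervals around 0, such as the corepressor rel2 with an interval of -0.38 to 0.13 and zfl1 with one of -0.37 to 0.40.

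Of 24 tested meristem maintenance genes, with 4 more below the filter on low counts, 2 were called higher in ndl1 and 1 lower, and the median was -0.01. These 3 are 12.5% of the list, against 3.47% of all genes tested. The homeobox gene kn1 (GRMZM2G017087), which marks the meristem, had 5060 to 7645 normalized counts in ndl1 and 5910 and 6098 in Bif1;Bif4, below the 7641 to 8670 of wildtype except for ndl1 replicate 2. Its log2 difference was 0.04, with an interval of -0.29 to 0.38. The receptor kinase gene TD1 (thick tassel dwarf1, GRMZM2G300133) had 193.2 to 352.1 in ndl1, 258.6 and 324.8 in Bif1;Bif4 and 622.0 to 940.9 in wildtype. It was below wildtype in both mutants and differed between them by -0.16 (interval -0.78 to 0.46). The gene fea3 (fasciated ear3, GRMZM2G166524), a leucine-rich repeat receptor that restrains stem cell proliferation, had 225.5, 304.7, 290.9 and 308.7 in ndl1. It had 703.8 and 514.4 in Bif1;Bif4 and 281.3 to 403.4 in wildtype, so that the double heterozygotes stood above both. The log2 difference was -1.10 ± 0.19 (SE, limma adjusted p = 0.0151). That call was lost without either Bif1;Bif4 library and with the replicate number as a block. The homeobox gene knox8 (GRMZM2G135447) had 121.6 to 181.3 in ndl1, 56.5 and 44.7 in Bif1;Bif4 and 54.6 to 105.9 in wildtype. WOX3A (GRMZM2G069028) was called at a limma adjusted p of 0.0462 from 17.8 to 32.9 against 10.02 and 6.39, and was called under 5 of 18 alternatives.

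**Figure D3:**
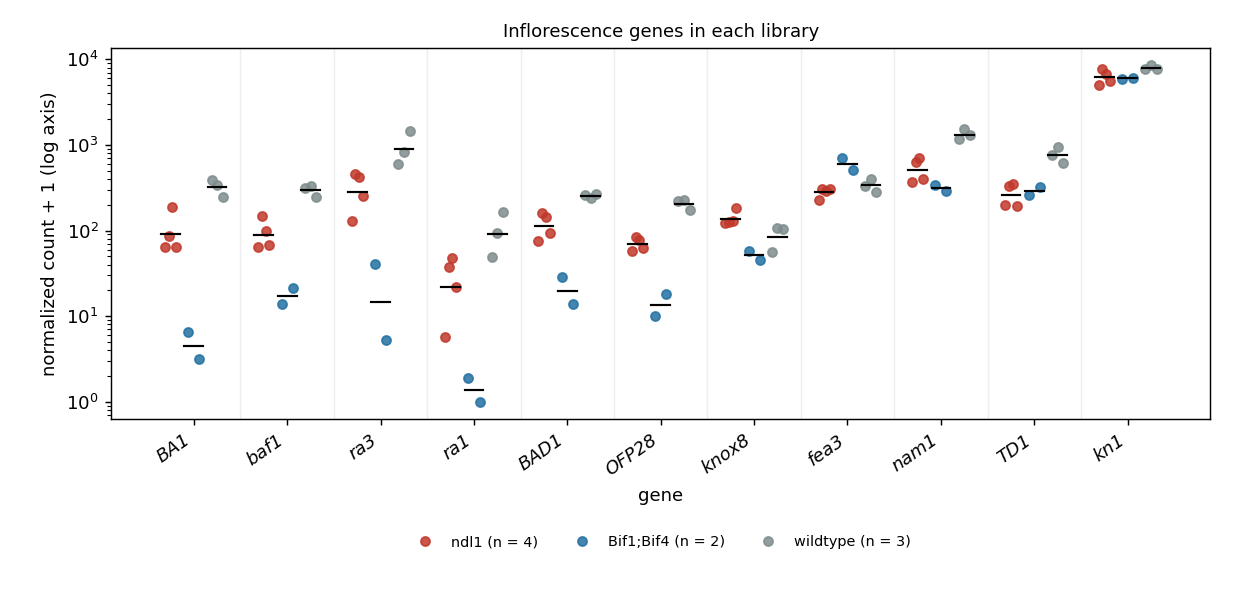
Normalized counts + 1 per library (vertical log axis) for 11 inflorescence genes, with ndl1 in red, Bif1;Bif4 in blue, wildtype in grey and black bars at the mean of the log values. From BA1 to OFP28 the red points lie between the grey and the blue ones, while for TD1 and kn1 the red and blue points overlap and for fea3 the blue points are highest.

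Of 34 tested Aux/IAA and ARF genes of auxin signalling 0 were called higher in ndl1 and 2 lower, with a median of -0.11. These 2 are 5.88% of the list, against 3.47% of all genes tested. EdgeR called 2 and DESeq2 called 7, and 9 had an unadjusted p under 0.05 in limma. Over all 23203 genes tested edgeR called 769 and DESeq2 1628, and 4204 had an unadjusted p under 0.05 in limma. AUX36 (GRMZM2G359924) had 23.4, 28.2, 35.5 and 11.9 normalized counts in ndl1, 87.4 and 78.8 in Bif1;Bif4 and 40.0 to 49.0 in wildtype. AUX6 (GRMZM2G035465) had 1548 to 1781, 2231 and 3341, and 1558 to 1781 in the same groups, with a log2 difference of -0.68 ± 0.14 (SE, limma adjusted p = 0.0355). For AUX36 the difference was -1.80 ± 0.37 (SE, limma adjusted p = 0.0328), and AUX36 was called under 11 and AUX6 under 9 of 18 alternatives. Both genes lie near NDL1 in the reference order, as described below. Of 8 tested genes of auxin synthesis, transport and conjugation limma and edgeR called 0 and DESeq2 called 1, with 3 at an unadjusted p under 0.05 in limma, and log2 differences ran from -0.56 to 0.73. Of 24 tested MADS box genes, which give floral organs and spikelets their identity, limma and edgeR called 0 and DESeq2 called 4, with 8 at an unadjusted p under 0.05 and a range of -0.88 to 1.10.

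Genes lower in ndl1 included transporters, gibberellin genes and a pyruvate orthophosphate dikinase. The potassium transporter gene HAK11 (GRMZM2G005040) had 81.4, 73.4, 71.9 and 57.8 normalized counts in ndl1, 214.9 and 187.4 in Bif1;Bif4 and 149.7 to 191.1 in wildtype. It was below both other groups in every ndl1 library, with a log2 difference of -1.49 ± 0.18 (SE, limma adjusted p = 0.00262). NRT1.2 (GRMZM5G811593), of the nitrate transporter family, had 62.7 to 115.1, 273.2 and 226.8, and 117.6 to 164.7 in the same groups. The gibberellin synthesis gene an1 (anther ear1, GRMZM2G081554) had 503.4 to 669.2 in ndl1, 875.9 and 983.0 in Bif1;Bif4 and 874.8 to 936.7 in wildtype. D8 (dwarf8, GRMZM2G144744), a DELLA repressor of gibberellin signalling, had 2461 to 3374, 4432 and 4107, and 3302 to 3411. Thus an1 was low in ndl1 and D8 high in Bif1;Bif4, and they were the 2 called of 11 tested sex determination and gibberellin genes. The share called was 18.2%, against 3.47% of all genes tested. D8 was called under 9 of 18 alternatives, and not without either Bif1;Bif4 library or any 1 of the wildtype libraries. PPDK (GRMZM2G097457), an identifier of pyruvate orthophosphate dikinase, had 89.6 to 189.8 in ndl1, 305.9 and 863.7 in Bif1;Bif4 and 163.4 to 311.9 in wildtype. It was called under 10 of 18 alternatives, and not without Bif1;Bif4 replicate 2. A second identifier, Ppdk1, was not called, at 0.78.

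Genes called lower in ndl1 were frequent near NDL1 and BIF1. Gene order was taken from the RefSeq annotation of Zm-B73-REFERENCE-NAM-5.0, where 15196 of the tested genes could be placed, and 1.52% of them were called lower in ndl1. NDL1 and BIF1 lie on the same chromosome with 432 placed genes between them. In the window of NDL1 and 100 placed genes on each side, 36 of 201 genes (17.9%) were called lower and 5 higher. Around BIF1 the numbers were 34 of 201 (16.9%) and 5, and around BIF4, on another chromosome, 6 of 201 (2.99%) and 1. On the whole chromosome of NDL1 and BIF1, 100 of 1374 genes (7.28%) were called lower, against 0.948% on the others, where the share ran from 0.647% to 1.12% per chromosome. Genes called higher made up 2.77% there and 1.66% on the others. Beyond NDL1, on the side away from BIF1, the share called lower was 1.46% of 752 genes. It was 14.6% of the 432 genes between the loci and 13.8% of the 188 genes beyond BIF1.

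The genes called lower near NDL1 had a median log2 difference from wildtype of -0.73 in ndl1 and 0.47 in Bif1;Bif4, so that the mutants lay on either side of the wildtype. Genes called lower on the other chromosomes lay on either side too, with medians of -0.18 in ndl1 and 0.61 in Bif1;Bif4. Of the 15 named genes with the largest differences among those lower in ndl1, 7 lie on this chromosome, against 0 of the 15 higher in ndl1. They are MYBR21, BT2A, PPDK, mbd101, TIP4-2, CAPIP1 and see2a. The methyl-binding protein gene mbd101 (GRMZM2G040131), 53 placed genes from NDL1, had 96.4, 80.1, 94.0 and 81.7 normalized counts in ndl1, 253.1 and 249.2 in Bif1;Bif4 and 122.8 to 193.7 in wildtype. BT2A (GRMZM2G093323) had 65.5 to 124.2, 314.1 and 331.2, and 195.4 to 229.9 in the same groups. PPDK lies 54, AUX36 45 and AUX6 34 placed genes from NDL1. Without the genes placed on this chromosome 668 called genes were left, 378 higher and 290 lower, but 498 of the 806 called genes could be placed and unplaced ones of this chromosome may remain. The labels give the B73 background but not how much other sequence the mutant lines carry around the mutated genes. The pattern was looked for after values had been seen, and the part of chromosomal position or linked alleles in these differences was not tested.

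**Figure D4:**
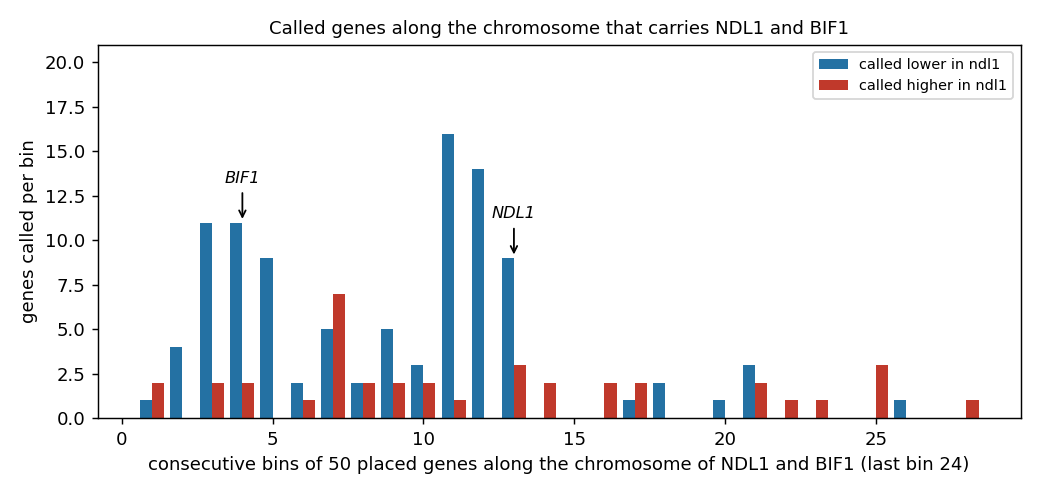
Number of genes called lower (blue) and higher (red) in ndl1 in consecutive bins of 50 placed genes along the chromosome that carries BIF1 and NDL1, whose bins are marked by arrows. The highest blue bars, 16 and 14 genes, lie between the marked bins next to NDL1, and few genes were called lower beyond it.

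The labelled tissue was checked by its markers, and markers of other tissues were set beside these results. The tassel markers kn1, TD1, fea2 and ub3 were present in every library, while Bif1;Bif4 held 1 read of ra1, at most 5.46 normalized counts of BA1, and 40.1 and 4.26 of ra3. Of 13 tested leaf photosynthesis genes, with 14 more below the filter and 3 of those (PSBQ, psbs1 and rca1) without a read in the mutants, limma, edgeR and DESeq2 called 0, with 0 at an unadjusted p under 0.05. Their summed level was 4823 to 5445 in ndl1 and 4911 and 5093 in Bif1;Bif4. Of 12 tested vascular and secondary wall genes, with 8 more below the filter and 5 of those (under the names LAC1, lac4 and cesa11) without a read in the mutants, limma and edgeR called 0 and DESeq2 called 2, with 2 at an unadjusted p under 0.05. Over all 23203 genes tested DESeq2 called 1628, and 4204 had an unadjusted p under 0.05 in limma. The summed level of the vascular and secondary wall genes was 3093 to 7245 in ndl1 and 3785 and 5167 in Bif1;Bif4. Beside wildtype the median of the leaf list was -0.12 in ndl1 and 0.26 in Bif1;Bif4. That of the vascular list was 0.59 and 0.79. The mean log2 level of the leaf list was 6.96 and 6.09 in Bif1;Bif4, outside the 6.17 to 6.34 of ndl1. In the vascular list this mean was higher in Bif1;Bif4 replicate 1 than in every ndl1 library, and replicate 2 lay within the ndl1 range. By summed level, in which genes with many reads weigh most, the range of Bif1;Bif4 lay inside that of ndl1 in both lists. For anther and meiosis genes it did not: the summed level of 11 tested genes was 7188 to 7902 in ndl1, 6214 and 6507 in Bif1;Bif4 and 6848 to 7343 in wildtype, and 3 were called higher in ndl1. The share called was 27.3%, against 3.47% of all genes tested.

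Those 3 genes act in meiotic recombination. The recombinase gene Dmc1 (GRMZM2G109618) had 521.1, 747.1, 400.0 and 453.1 normalized counts in ndl1, 223.1 and 247.1 in Bif1;Bif4 and 180.9 to 258.3 in wildtype. The cohesin gene afd1 (GRMZM2G059037) had 1299 to 1839, 1023 and 922.3, and 706.6 to 729.1 in the same groups. Rad51A2 (GRMZM2G084762) had 520.2 to 617.3, 368.8 and 356.8, and 421.8 to 461.1. All 3 were thus above wildtype in every ndl1 library. In Bif1;Bif4 afd1 was above wildtype, Rad51A2 was below it and Dmc1 lay within its range. The other 8 members, among them the synaptonemal complex gene ZYP1 at -0.36 and am1 at -0.58, were not called. The part of developmental stage in these differences was not tested.

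**Figure D5:**
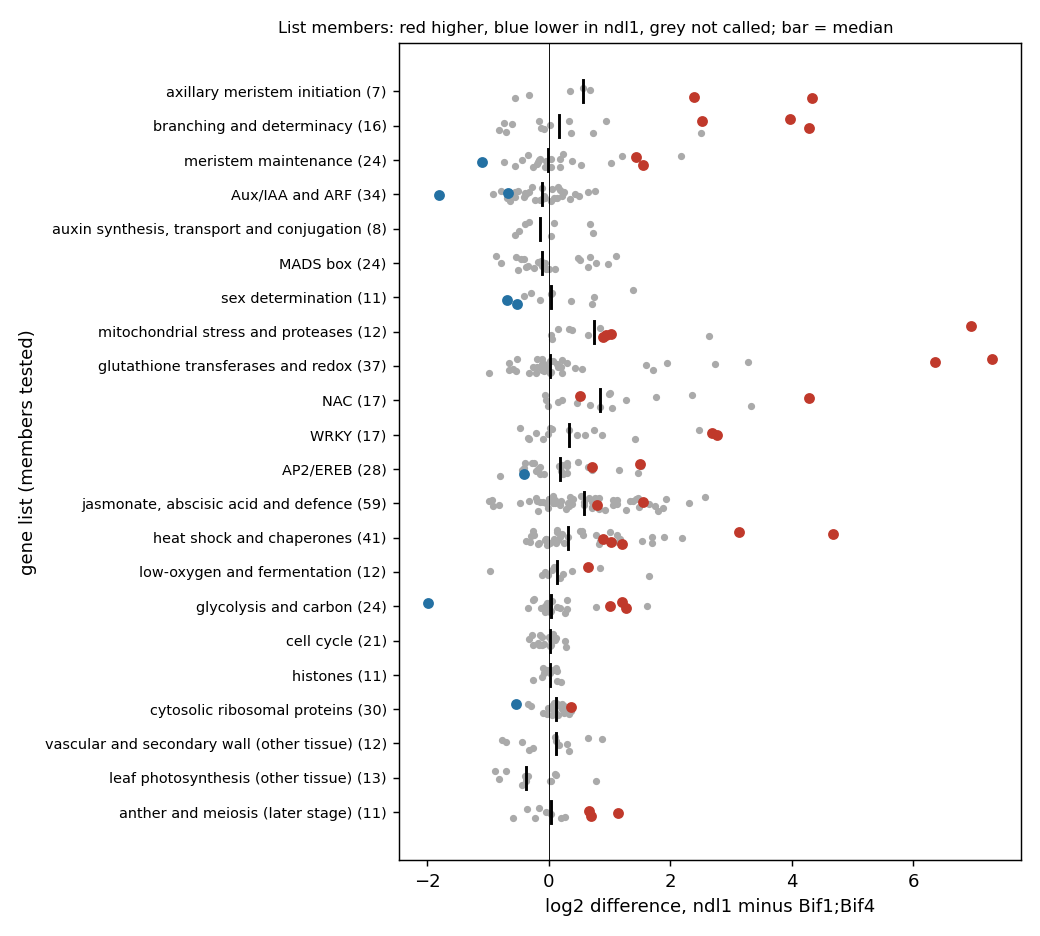
Log2 difference between ndl1 and Bif1;Bif4 (horizontal axis) of every tested member of 22 gene lists (vertical axis, number tested in brackets), with members called higher in ndl1 in red, called lower in blue, not called in grey and a black bar at the list's median. The highest medians are those of the NAC list at 0.84 and the mitochondrial list at 0.74, and those of cell cycle and histone genes are among the many near 0.

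Housekeeping genes were set beside these lists. Of 21 cell cycle and 11 histone genes limma, edgeR and DESeq2 called 0, with 1 and 0 at an unadjusted p under 0.05 in limma, and their differences ran from -0.33 to 0.29 and from -0.26 to 0.20. Of 30 cytosolic ribosomal protein genes rps13 was called higher in ndl1, at 0.36 ± 0.08, and rpp2b lower, at -0.55 ± 0.11, with a median of 0.11. In edgeR 2 of them were called and in DESeq2 6, while 8 had an unadjusted p under 0.05 in limma. Over all 23203 genes tested DESeq2 called 1628, and 4204 had an unadjusted p under 0.05 in limma. The 2 called in limma are 6.67% of the list, against 3.47% of all genes tested. Of these 2, rps13 was called under 6 of 18 alternatives and rpp2b under 13. The libraries did not overlap in 12 ribosomal protein genes that were higher and 2 that were lower in ndl1. Over all genes tested these shares were 13.3% and 14.5%. Of the 30 ribosomal protein genes 24 had a positive difference, so this list leaned towards ndl1.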

How the data were processed

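RNA of 9 maize tassel libraries (4 ndl1, 2 Bif1;Bif4, 3 wildtype) was sequenced as stranded mRNA after column extraction, per the labels' protocols. The submitters' processing notes name DESeq2, HTSeq, Trimmomatic and TopHat2 2.1.1. Neither the build nor the strand used in counting was given (not given in the sources used here), so antisense or overlapping genes and near-identical copies are uncertain. The deposited signal values per library are counts divided by a size factor, in 1 table per mutant against wildtype, per the file headers. Log2 fold changes, a test statistic score and the p-values that the authors deposited beside them were not used here. The tables were joined on 39305 identifiers, of which 8117 had no read. Whole reads were recovered in every library for 100% of the values within 0.1 reads, and 0 genes differed between the tables in wildtype.

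The 9 libraries were scaled together by median-of-ratios size factors. Genes passed edgeR's filterByExpr with a minimum count of 10, and limma with a trend on intensity (version 3.58.1 in R 4.3.3) was fitted to log2(normalized count + 1) with 3 group means. The added 1 shrinks differences of genes with few reads. The threshold was an adjusted p of 0.05. EdgeR's quasi-likelihood test (edgeR 4.0.16) and DESeq2 (1.42.0) were run on the recovered reads. Floors of 3 reads, counted over a group, and counting intervals (95%) cover counting error only. Libraries of a group differed by more than counting error, at 9.35 to 37.9 for chi-square over its degrees of freedom, so that none was counted as a copy. The fit was tested on simulated data.

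Gene names were read from the RefSeq table of Zm-B73-REFERENCE-NAM-5.0, used only for names and gene order: 18476 identifiers matched 1 gene, 521 several, and 2682 had a descriptive name. The 23 gene lists, the members and the tests were chosen with earlier results of these data known, and 47 wrongly matched list entries were removed after matching. Named genes were the mutated genes, the 15 called genes with the largest difference each way that had a descriptive name, a mean of at least 50 normalized counts and no overlap between the mutants, up to 4 called members per list, all members of the 3 lists of axillary meristem, branching and meristem genes, and at most 2 unnamed identifiers each way. Of these 101 genes the text gives a part. Promoter and protein sequences were not analysed here.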

Additional observations from a re-analysis of the deposited data

Results flagged for a closer look

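In each of the 101 named genes the 4 ndl1 libraries were searched for a library far from the other 3, by the gap to its nearest neighbour over the range of the group, and 5 were found. Chance gives about 1 in 20 such groups. ald1 was lowest in ndl1 replicate 2, at 12260 normalized counts against 15490 to 15810 in the others, and among the ndl1 libraries its call was lost without replicate 1, 3 or 4 but not without replicate 2. BIF1 was highest in replicate 3, at 450.6 against 284.4 to 293.8. The homeobox gene knox8 was highest in replicate 4, at 181.3 against 121.6 to 126.8. The kinase gene bif2 was lowest in replicate 1, at 43.0 against 76.3 to 80.7. PPCK1, a kinase of phosphoenolpyruvate carboxylase, was lowest in replicate 4, at 288.8 against 371.3 to 384.5. Groups of 2 and 3 libraries were not searched.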

How the results depend on the processing

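All 61 named genes that were called kept their direction under each of the 18 alternatives in which they were tested, and 13 were called under every one: gst2, Aox, gst42, BA1, NAC12 (GRMZM2G018436), OFP28, EREB94, eno1, phb2, HAK11 and 3 unnamed identifiers. Among these identifiers, GRMZM5G869635 had no read outside ndl1 and passed the filter on low counts only through that group. The count of 806 called genes (416 higher and 390 lower in ndl1) was 794 with TMM and 831 with total-read scaling (377 higher, 454 lower), 791 and 814 with pseudocounts of 0.5 and 5, 775 without the filter on low counts and 769 in edgeR. DESeq2 called 1628 (865 higher, 763 lower). A fit to the 6 mutant libraries called 356 (204 and 152), which has fewer samples to estimate the spread. A threshold of 0.01 left 240 (140 and 100), and a log2 difference of at least 1 left 460 (260 and 200). With each library left out in turn, 152 to 892 genes were called, 92 to 524 higher and 60 to 395 lower. The lowest counts were those without a Bif1;Bif4 library, where the lone sample is assumed to vary like the other groups. They were 233 (131 and 102) without replicate 1 and 152 (92 and 60) without replicate 2, and 23 and 19 of the 61 named genes were called. Without ndl1 replicate 1 the counts were 482 (258 and 224), and without wildtype replicate 2 the lower count was 255. With the replicate number as a block 336 genes were called (184 and 152). Deviations from the group means of same-numbered ndl1 and Bif1;Bif4 libraries correlated at -0.195 for replicate 1 and -0.0805 for replicate 2. With 2 Bif1;Bif4 libraries these deviations are mirror images. The 2 values therefore cannot tell whether same-numbered libraries share more than a number. Without genes placed on the chromosome of NDL1 and BIF1, an alternative added after seeing the data, 668 were called (378 and 290). The causes of these changes were not tested. The 2 Bif1;Bif4 libraries limit the precision most, and ra1, Hsf03 and WRKY29 had 0 to 2 reads in that group.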

Other observations

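Some called genes had no read in one of the mutants. There were 19 without a read in all 4 ndl1 libraries, 14 of them also without one in wildtype, and 14 without a read in both Bif1;Bif4 libraries, 3 of them also without one in wildtype. Those also without a read in wildtype passed the filter on low counts only through the mutant where they are high. Genes without a read in a group were not counted over all genes tested. GRMZM2G068091 had 320.5 and 352.5 normalized counts in Bif1;Bif4 and 112.0 to 167.7 in wildtype, which is at least 457-fold higher in Bif1;Bif4 than the floor of 3 reads over the ndl1 group. GRMZM5G869635 had 46.1 to 104.9 in ndl1 and no read in any other library, at least 56.7-fold higher in ndl1. GRMZM2G135960 had 9067, 10134, 5757 and 3657 in ndl1, 160.3 and 30.9 in Bif1;Bif4 and 96.9 to 140.4 in wildtype. The files and the gene table give these identifiers no descriptive name.

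In 41 called genes the mutant means lay more than 1 log2 unit from wildtype on opposite sides, 21 of them higher and 20 lower in ndl1. Such genes were not counted over all genes tested. Some of the 41 had few reads, so that 1 log2 unit from wildtype was a matter of a few counts. AC234528.1_FG006, for example, had a wildtype mean of 2.08 normalized counts and no read in Bif1;Bif4. The single one with a descriptive name was plt1 (GRMZM2G101958), with 208.6 to 1254 normalized counts in ndl1, 39.2 and 22.4 in Bif1;Bif4 and 59.5 to 118.6 in wildtype.

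A few further called genes outside the naming rule were chosen after their values were seen, and they stand for no theme. The voltage-dependent anion channel gene vdac2, of the outer mitochondrial membrane, had a mean of 4009 normalized counts in ndl1, 1655 in Bif1;Bif4 and 2091 in wildtype, a log2 difference of 1.26 (limma adjusted p = 0.00144). The calnexin gene CNX, a chaperone of the endoplasmic reticulum, had 8833, 5591 and 9645 in the same groups, a difference of 0.66 (limma adjusted p = 0.00970). The cell wall gene HRGP, a hydroxyproline-rich glycoprotein, had 29207, 17255 and 41459, a difference of 0.74 (limma adjusted p = 0.0453). The precursor MIR390a was lower in ndl1, with 22.6, 80.7 and 28.4 and a difference of -1.92 (limma adjusted p = 0.0487).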
